A study of Mus musculus with 24 samples.

Results

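Protamines and transition proteins are the small nuclear proteins that take over from histones while the spermatid nucleus condenses. The 7 genes described here are Tnp1 and Tnp2 (transition proteins 1 and 2), Prm1, Prm2 and Prm3 (protamines 1 to 3), and Hils1 and H1fnt, which encode linker histones of spermatids. They were chosen by name, by a rule that uses no measured value, as the rows of the count table whose Ensembl identifiers carry these symbols in the GENCODE M21 annotation. All 7 were found among 55536 genes, of which 36785 had at least 1 count in the libraries used. All 7 passed the filter on low counts, and each was far above it in every library.

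The libraries were made from polyadenylated RNA of 2 testis cell fractions, separated by sedimentation through a gradient of bovine serum albumin. One fraction was enriched for pachytene and diplotene spermatocytes (meiotic cells) and the other for round spermatids (cells that have just completed meiosis). Each library pooled the testes of 2 to 5 mice aged 10 to 15 weeks, and the labels put the purity of the fractions above 70%. A constitutive deletion on chromosome 4 was absent (Ago413+/+, wild type), present on 1 copy (Ago413+/-) or present on both (Ago413-/-). It takes out the whole of Ago1 together with stretches of Ago3 and of Ago4, genes for Argonaute proteins, which bind small RNAs. The deletion is in every cell of the animal, on a C57BL/6J background, so the germ cells and the somatic cells around them carry it alike. Of 24 libraries, 3 that the labels call outliers were set aside, which left 4 Ago413+/+, 3 Ago413+/- and 3 Ago413-/- spermatocyte libraries and 3 Ago413+/+, 4 Ago413+/- and 4 Ago413-/- round spermatid libraries. Nothing in the labels says whether 2 libraries ever shared animals.

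In mammals, the protamine and transition protein genes are transcribed in the round spermatid, whereas their proteins are made days later in the elongating spermatid. The mRNA is stored in between, bound by proteins such as the Y-box protein Ybx2. The transition proteins occupy the chromatin for a short time after the core histones leave, and the protamines then replace them and pack the DNA through arginine-rich stretches that cysteine bridges hold together. Prm1, Prm2, Prm3 and Tnp2 lie side by side in one cluster, whereas Tnp1, Hils1 and H1fnt stand alone on other chromosomes.

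The cluster runs over 17904 bp of chromosome 16 in mm10, from 10787936 to 10805839, with all 4 genes on the minus strand in the order Tnp2, Prm3, Prm2, Prm1. Tnp1 lies on chromosome 1 (73015074 to 73015909, minus strand), Hils1 on chromosome 11 (94967593 to 94968456, plus strand) and H1fnt on chromosome 15 (98255986 to 98257293, minus strand). Hils1 sits within the body of Sgca on the opposite strand, with no shared exonic base. Tnp1 shares 40 exonic bases with the antisense gene 1700027A15Rik, so that reads there can be told apart only if the counting used strand, which is not given in the sources used here.

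The coding sequences of the 7 genes differ in composition more than the shared name of the protamines implies. Of 51 codons of Prm1, 54.9% encode arginine and 17.6% cysteine, and none encodes an acidic residue. Prm2, which is made as a precursor and then trimmed, has 35.5% arginine and 15.0% histidine over 107 codons. Tnp1 has 20% arginine and 18.2% lysine over 55 codons, and Tnp2 has 13.7% arginine, 9.40% lysine and 18.8% serine over 117 codons. Prm3 stands apart: over 101 codons it has 1.98% arginine and 29.7% aspartate or glutamate, so that it is acidic where the other protamines are basic. Hils1 and H1fnt have 18.2% and 25.4% arginine or lysine over 170 and 398 codons.

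The bases upstream of these genes are shown because the genes rose together between the fractions, and because the letters of known control elements can be looked for in them. CREM, the activator of many spermatid genes, binds the cyclic AMP response element TGACGTCA, and the TATA element TATAA places the start of transcription. In the 250 bases before each RefSeq start (GRCm38.p6, both strands searched), none of the 7 genes held TGACGTCA, which 1.55% of all 32851 promoters held. With 1 free base (TGANGTCA, either strand) Tnp1, Prm1 and Prm3 held a match, against 7.49% of all promoters. These matches are given in capitals in stretches of 30 bases, each on the minus strand and written 5′ to 3′, at chr1:73015975-73016004, chr16:10796869-10796898 and chr16:10790956-10790985.
Tnp1: gcaaaggttagTGATGTCAcaagagagctg
Prm1: ctggtcctcttTGACTTCAtaattcctagg
Prm3: tggagcctttgTGAGGTCAgtgccacaccc

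The first bases of the matches lay 94, 64 and 60 bases before the RefSeq starts of Tnp1, Prm1 and Prm3. The GENCODE model of Prm1 with 2 exons begins 63 bases upstream of the RefSeq start. The TATAA stretch of Prm1, and all but the first base of its TGANGTCA match, thus lie inside the first exon of that model. TATAA was found on either strand in Tnp2, Prm1 and Prm2, 33, 32 and 30 bases before the start, and in 22.8% of all promoters at any position. These stretches lie on the minus strand at chr16:10788671-10788700, chr16:10796838-10796867 and chr16:10792118-10792147, with the match in capitals.
Tnp2: tcggcccagctaTATAActaggggctgtgg
Prm1: gccactagtatcTATAAgaggaagagggtg
Prm2: tggggtttacctTTATAtatgagccctctg

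For Prm2, the most abundant of the 7 mRNAs, the whole 250 bases before the start are shown (chr16:10792106-10792355, minus strand), with TATAA and the nuclear receptor element AGGTCA in capitals. Prm2 held AGGTCA at 2 places on the printed strand. On either strand Tnp2, Prm2, Prm3 and H1fnt held it, 4 of 7, against 14.0% of all promoters, and in Prm3 it overlapped the match of TGANGTCA. A match describes these letters alone and is no evidence of binding.
Prm2: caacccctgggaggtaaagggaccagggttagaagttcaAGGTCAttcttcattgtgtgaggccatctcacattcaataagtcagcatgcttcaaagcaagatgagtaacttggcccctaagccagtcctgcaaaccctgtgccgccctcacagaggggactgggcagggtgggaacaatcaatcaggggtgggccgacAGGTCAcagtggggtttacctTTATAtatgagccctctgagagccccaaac

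Library totals ran from 12825105 to 29749058 counts over the 21 libraries. Ago1, which the deletion removes entirely, had 0 counts in all 7 Ago413-/- libraries and 32 to 122 in the 14 others. In Ago413+/+ animals the 6 spermatocyte markers were lower in the round spermatid fraction in 6 of 6 cases by the test described next. The 5 acrosomal and early round spermatid markers (Acrv1, Spaca1, Izumo1, Lyzl4, Tssk4) were called in 0 of 5, with log2 fold changes of 0.24 to 0.63, and their summed level was 537 to 983 CPM (counts scaled to the library total, without TMM) in Ago413+/+ spermatocyte libraries against 567 to 914 in Ago413+/+ round spermatid libraries. In Ago413+/+ animals the labelled fractions were thus told apart by the markers of meiotic cells, and not by those of early round spermatids. Of the 6 spermatocyte markers, 0 were called lower in Ago413+/- round spermatids and 2 in Ago413-/- ones. Their median log2 fold changes were -0.71 and -0.85.

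Within each library the 7 genes took a large share of all mRNA. They held 2.47% ± 0.294 (SD, n = 3) of all counts in Ago413+/+ round spermatids, 2.30% ± 0.809 (n = 4) in Ago413+/- and 2.88% ± 0.670 (n = 4) in Ago413-/-. In spermatocytes the share was 0.723% ± 0.239 (n = 4), 0.814% ± 0.141 (n = 3) and 0.814% ± 0.489 (n = 3). Prm2 ranked first or second among all genes in every round spermatid library, and Prm1, Tnp2 and Tnp1 ranked no lower than 9, 13 and 15. Hils1, H1fnt and Prm3 ranked 131 to 293, 73 to 199 and 344 to 927 there.

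The level of each gene was taken as CPM scaled by edgeR's trimmed mean of M values (TMM). Per kilobase of the transcript, which allows levels of different genes to be compared, the order in Ago413+/+ round spermatids was Prm2 at 15052 ± 4016 CPM per kilobase (SD, n = 3), Prm1 at 11374 ± 1776, Tnp1 at 10528 ± 1923 and Tnp2 at 8755 ± 1303. Prm3 (875 ± 177), Hils1 (868 ± 132) and H1fnt (772 ± 104) followed far below. Neighbours in this order differed by less than the larger of their SDs, except for the step from Tnp2 to Prm3. The order was the same in Ago413+/- round spermatids, and in Ago413-/- ones Tnp1 (13401) and Prm1 (13108) changed places. In spermatocytes of all 3 genotypes Hils1 stood above Prm3.

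**Figure D1:**
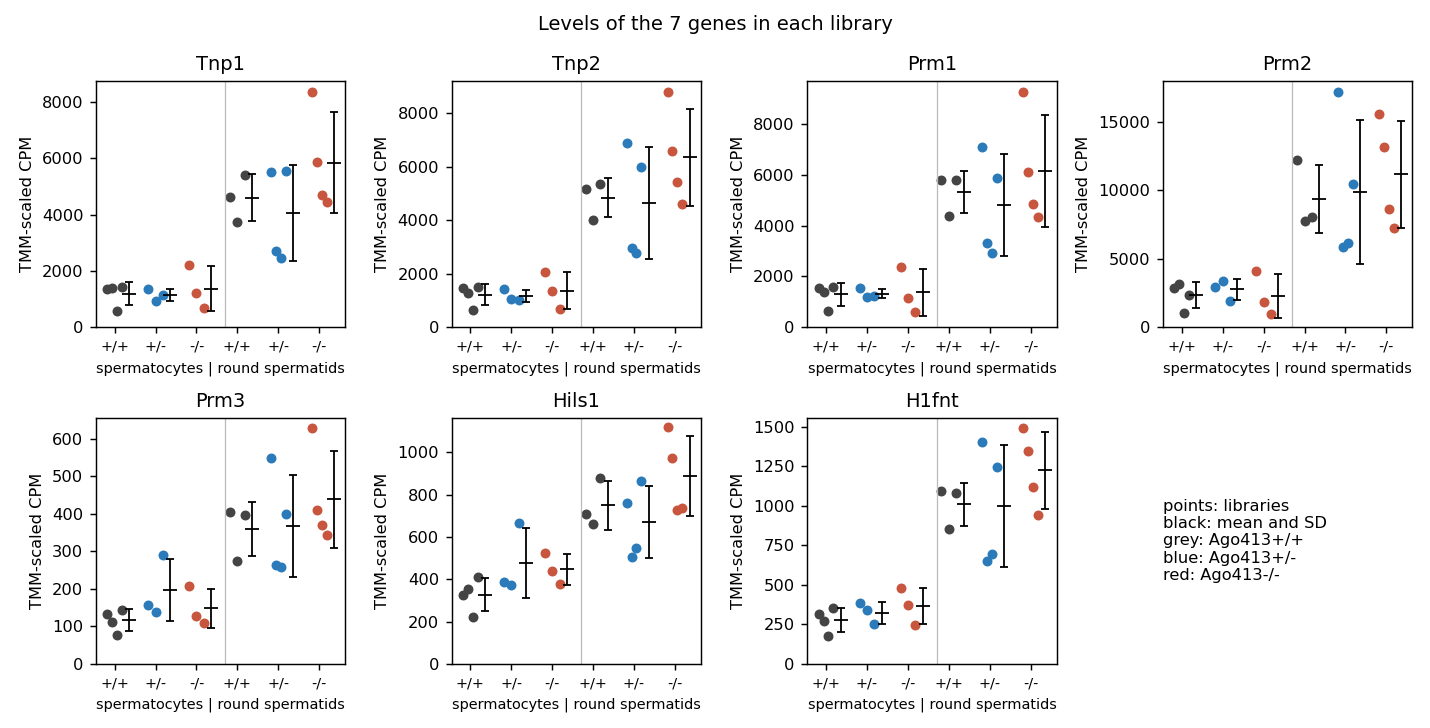
Level of each of the 7 genes (TMM-scaled CPM, vertical axes from 0) in each of the 21 libraries, by fraction and genotype; points are libraries, and the black marks give the mean and SD of the group. In Ago413+/+ and Ago413-/- animals every round spermatid library lies above every spermatocyte library for all 7 genes, and the genotypes overlap within each fraction.

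The first comparison asked how the 7 mRNAs differed between round spermatids and spermatocytes of the same genotype. In Ago413+/+ animals all 7 rose in the round spermatid fraction. A gene was called when its adjusted p (edgeR quasi-likelihood test, Benjamini-Hochberg over all genes tested) was below 0.05 and its log2 fold change beyond 0.5. By this rule 12.7% of the 20404 genes tested were called higher in Ago413+/+, so 7 of 7 stands against that share. For all 7 genes every round spermatid library lay above every spermatocyte library, which held for 17.3% of all genes. In bulk RNA, more cells that carry an mRNA and more of it per cell cannot be told apart.

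Prm1 measured 1563, 1378, 638 and 1604 CPM in the 4 Ago413+/+ spermatocyte libraries and 5815, 4373 and 5815 CPM in the 3 round spermatid libraries. The lowest spermatocyte value came from replicate 4, which was low for all 7 genes. The log2 fold change of Prm1 was 2.04 (SE 0.38, adjusted p = 0.000817), or 4.12-fold. Prm2 measured 2889, 3161, 1072 and 2348 CPM in the spermatocytes and 12224, 7795 and 8023 CPM in the round spermatids, a log2 fold change of 1.98 (SE 0.43, adjusted p = 0.00205).

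The estimates for the transition proteins were close to those for Prm1 and Prm2. Tnp1 measured 1349, 1389, 592 and 1445 CPM in the spermatocytes against 4626, 3748 and 5429 CPM, a log2 fold change of 1.95 (SE 0.36, adjusted p = 0.000744). Tnp2 measured 1472, 1264, 636 and 1498 CPM against 5187, 4022 and 5342 CPM, a log2 fold change of 1.99 (SE 0.35, adjusted p = 0.000566). The groups did not overlap for either gene.

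The estimates for H1fnt and Prm3 were lower, for H1fnt by less than its SE, and that for Hils1 was lowest. H1fnt went from 177 to 352 CPM in spermatocytes to 853 to 1094 CPM in round spermatids (log2 fold change 1.86, SE 0.27, adjusted p = 0.000435). Prm3 measured 133, 112, 77.96 and 144 CPM in spermatocytes and 405, 275 and 396 CPM in round spermatids (log2 fold change 1.62, SE 0.30, adjusted p = 0.000802). Hils1 measured 325, 355, 221 and 411 CPM in spermatocytes and 707, 662 and 879 CPM in round spermatids. Its log2 fold change was 1.19 (SE 0.23, adjusted p = 0.00111), or 2.29-fold, and its 95% interval (0.71 to 1.68) ended below the estimates of the 5 genes other than Prm3.

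In Ago413-/- animals all 7 genes rose again, with 11.7% of genes called higher and 18.7% not overlapping. The log2 fold changes were 2.29 for Prm2 (SE 0.46), 2.21 for Tnp2 (SE 0.37), 2.16 for Prm1 (SE 0.40) and 2.09 for Tnp1 (SE 0.38). They were 1.74 for H1fnt, 1.57 for Prm3 and 0.99 for Hils1, with adjusted p-values from edgeR of 0.000957 to 0.00664 over the 7 genes. Without Ago413-/- spermatocyte replicate 3, the lowest of its group for all 7 genes, Hils1 had an adjusted p of 0.0616 (log2 fold change 0.89, edgeR) and was no longer called. Replicate 1 was the highest of that group for all 7 genes. Without it all 7 estimates were larger, with 3.001 for Prm2, 2.812 for Prm1, 2.642 for Tnp2 and 2.635 for Tnp1. The smallest was then 1.122 for Hils1, and all 7 were called (edgeR adjusted p-values of 0.000816 to 0.00825).

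In Ago413+/- animals 5 of 7 rose, with 7.07% of genes called higher and 10.9% not overlapping. Tnp2 (log2 fold change 1.99, SE 0.37), Prm1 (1.86, SE 0.40), Prm2 (1.85, SE 0.45), Tnp1 (1.82, SE 0.38) and H1fnt (1.62, SE 0.28) passed. Prm3 (0.91, SE 0.31, adjusted p = 0.0662) and Hils1 (0.49, SE 0.24, adjusted p = 0.213) did not pass by edgeR. DESeq2, which called 8.04% of genes higher here, called Prm3 (log2 fold change 0.89, adjusted p = 0.0441), and so did edgeR without the filter on low counts (0.90, adjusted p = 0.0011). For these genes the groups overlapped through 1 library. Ago413+/- spermatocyte replicate 3 had 668 CPM of Hils1 and 290.4 CPM of Prm3, against 374 and 389.7 CPM of Hils1 and 139.6 and 158 CPM of Prm3 in the other spermatocyte libraries of the group. In that same library Tnp1, Tnp2, Prm1 and Prm2 lay between 1026 and 1935 CPM, inside or below the range of the rest of its group.

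Single libraries decided several of the Ago413+/- calls. Without spermatocyte replicate 3, Prm3 was called (log2 fold change 1.28, edgeR adjusted p = 0.0328), Hils1 was not (0.79, adjusted p = 0.0583), and Prm2 was lost (1.62, adjusted p = 0.0766). Prm2 was also lost without round spermatid replicate 1, the library with its highest level of 17164 CPM (log2 fold change 1.44, edgeR adjusted p = 0.0558). Prm3 was called without round spermatid replicate 2 or 3 (log2 fold changes 1.04 and 1.04, edgeR adjusted p = 0.037 and 0.0453).

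**Figure D2:**
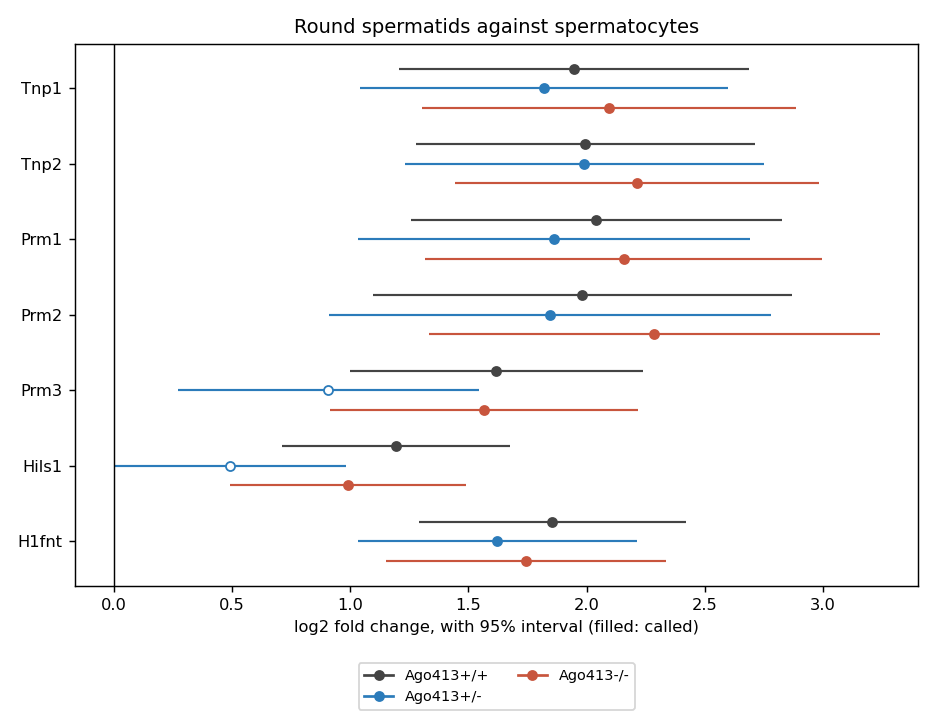
Log2 fold change of each gene between round spermatids and spermatocytes (horizontal axis) with its 95% interval, by genotype; filled points passed the test and open points did not. The estimates run from 0.49 for Hils1 in Ago413+/- to 2.29 for Prm2 in Ago413-/-, and Hils1 is the lowest of the 7 genes in each genotype.

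The 3 libraries that the labels call outliers bear directly on this comparison. The Ago413+/+ round spermatid library among them had less of all 7 genes than any other round spermatid library, with 973 CPM of Prm1 against 2894 to 7702 CPM in the libraries used (CPM of all counts, without TMM). The Ago413+/+ and Ago413+/- spermatocyte libraries set aside had more of all 7 genes than any Ago413+/+ spermatocyte library used, with 2760.0 and 2639 CPM of Prm1. With the 3 added back, 0 of 7 genes passed in Ago413+/+ and 0 of 7 in Ago413+/- by edgeR, while 7 of 7 still passed in Ago413-/-. None of the 20542 genes tested passed in Ago413+/+ or Ago413+/- by edgeR then, while 5950 and 3471 had an unadjusted p below 0.05, so that the lost calls were those of all genes. The log2 fold changes in Ago413+/+ were 0.82 for Hils1 to 1.42 for Prm1. In Ago413+/- the 5 genes that lost their call had 1.30 (H1fnt) to 1.68 (Prm2), with edgeR adjusted p-values of 0.0751 to 0.101.

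Whether the deletion changed the step from spermatocyte to round spermatid was tested as a difference of differences. None of the 7 genes passed, and neither did any of the 20404 genes tested (percent called 0), by edgeR or by DESeq2. At an unadjusted p below 0.05 edgeR had 0 of the 7 genes and 1215 of all genes, and DESeq2 had 0 and 1411. For Prm1 the difference between the null and wild-type steps was 0.12 on the log2 scale (95% interval -0.99 to 1.22). Differences of up to about 1 log2 unit either way thus remain compatible with these libraries. Without Ago413-/- spermatocyte replicate 1 the null step of Prm1 was 2.812, beside 2.04 for the wild-type step in the main fit. None of the 20324 genes tested passed the test of the difference then.

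Because the 7 genes did not rise equally, each was also set against Prm1 within its own library. This choice followed the sight of the levels and is given as a description without a test. The proportions of Tnp1, Tnp2 and Prm2 to Prm1 were nearly the same in both fractions. Over 10 spermatocyte and 11 round spermatid libraries, the mean number of counts per 1000 Prm1 counts was 937 and 889.7 for Tnp1, 959 and 976 for Tnp2, and 1814 and 1853 for Prm2.

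Relative to Prm1, the means of the other genes were higher in spermatocytes. Any gene that rose less than Prm1 between the fractions falls relative to it. How many of all genes separate the fractions in this way was not counted. Hils1 had 208 to 644 counts per 1000 Prm1 counts in spermatocytes and 107 to 187 in round spermatids, so that the lowest spermatocyte library was above the highest round spermatid library. Prm3 had 81.1 to 235 against 62.9 to 87.8, and 7 of 10 spermatocyte libraries were above all round spermatid libraries. H1fnt had 196 to 422 against 161 to 236, with 5 of 10 above all. On the log2 scale the means differed by -1.13 for Hils1, -0.65 for Prm3 and -0.30 for H1fnt (round spermatids minus spermatocytes), and each had the same sign in every genotype. For Hils1 the difference was -0.90 in Ago413+/+, -1.26 in Ago413+/- and -1.34 in Ago413-/-.

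**Figure D3:**
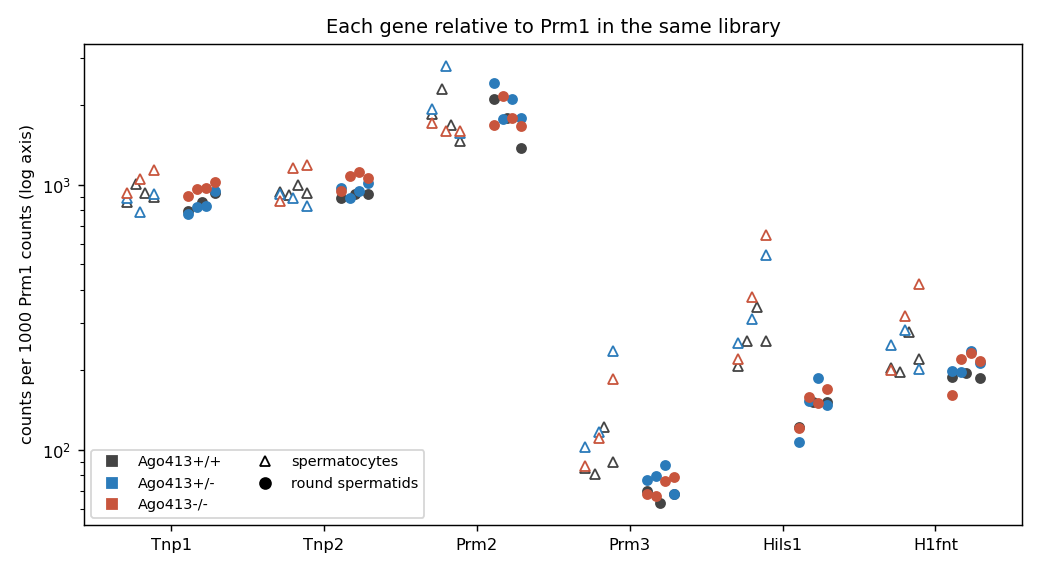
Counts of each gene per 1000 Prm1 counts in the same library (vertical log axis); open triangles are spermatocyte libraries, filled circles round spermatid libraries, and colours genotypes. Tnp1, Tnp2 and Prm2 overlap between the fractions, whereas all 10 spermatocyte libraries lie above all 11 round spermatid libraries for Hils1. How many other genes separate in this way relative to Prm1 was not counted.

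The second comparison asked whether the genotypes differed within a fraction. None of the 7 genes passed the test in any of the 6 comparisons. In round spermatids, 0.0518% of the 19310 genes tested were called for Ago413-/- against Ago413+/+, 0.0207% for Ago413+/- against Ago413+/+ and 0.00518% for Ago413-/- against Ago413+/-. In spermatocytes the shares of 19450 genes were 0.0411%, 0.0257% and 0.00514%. With so few genes called, 0 of 7 does not differ visibly from the background. DESeq2, which called 15.6% of genes for Ago413-/- against Ago413+/+ in spermatocytes and 3.64% in round spermatids, also called 0 of 7 in all 6 comparisons. At an unadjusted p below 0.05 both tools had the same counts: 2 of the 7 genes for Ago413+/- against Ago413+/+ spermatocytes, 1 for Ago413-/- against Ago413+/- round spermatids and 0 elsewhere. Over all genes edgeR then had 4794 of 19450 and 1482 of 19310 in these comparisons, and 727 to 5907 genes in the others, so that 2 of 7 is near the background.

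In Ago413-/- round spermatids all 7 estimates were above Ago413+/+, though none passed. Prm1 measured 9261, 6128, 4857 and 4345 CPM in the 4 Ago413-/- libraries, 7116, 3315, 2942 and 5871 CPM in the 4 Ago413+/- libraries and 5815, 4373 and 5815 CPM in the 3 Ago413+/+ libraries. The highest value belonged to Ago413-/- replicate 1, and the Ago413+/- libraries fell on both sides of the Ago413+/+ ones. The log2 fold change was 0.16 (95% interval -0.42 to 0.75, edgeR adjusted p = 0.773). For Tnp2 (0.35, 95% interval -0.23 to 0.93) and Tnp1 (0.31, -0.26 to 0.88) the estimates were the largest. The others were 0.25 for Prm3, 0.24 for H1fnt, 0.21 for Prm2 and 0.21 for Hils1, beside a median over all genes of 0.03.

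Markers of elongating spermatids were measured in the same libraries. The 7 markers Oaz3, Smcp, Odf1, Spem1, Cabs1, Tppp2 and Akap4 summed to 9933 to 14714 CPM in Ago413-/-, 8613 to 16319 CPM in Ago413+/- and 9160 to 12858 CPM in Ago413+/+ round spermatids, and all 7 had estimates above Ago413+/+ in Ago413-/-. None of the 7 markers was at 0 in any group, and none passed the test. Their part in the levels of the protamines was not tested.

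In Ago413-/- spermatocytes the estimates against Ago413+/+ ran from -0.03 for Prm2 to 0.46 for Hils1, with a median over all genes of -0.03. Tnp1 measured 2228, 1219 and 667 CPM in Ago413-/-, 1371, 943 and 1138 CPM in Ago413+/- and 1349, 1389, 592 and 1445 CPM in Ago413+/+. The Ago413-/- libraries held the highest value and, after Ago413+/+ replicate 4, the next lowest. The log2 fold change of Tnp1 was 0.22 with a 95% interval of -0.56 to 1.00 (edgeR adjusted p = 0.695). Without Ago413-/- replicate 1 it was -0.36, and without Ago413+/+ replicate 4 the 3 remaining wild-type libraries lay within 1349 to 1445 CPM.

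In Ago413+/- spermatocytes Prm3 and Hils1 came nearest to a call. Prm3 had a log2 fold change of 0.79 against Ago413+/+ (95% interval 0.15 to 1.42, edgeR adjusted p = 0.147) and Hils1 of 0.58 (0.06 to 1.10, adjusted p = 0.168). Without Ago413+/- replicate 3, the library described above, these fell to 0.39 and 0.26. That library also had the highest summed level of the 5 round spermatid markers of all 24 libraries, 1623 CPM, and their part in its Prm3 and Hils1 was not tested. Testing without the filter on low counts called Prm3 (log2 fold change 0.74, edgeR adjusted p = 0.0131). The other 5 estimates in this comparison lay between -0.02 (Tnp1 and Tnp2) and 0.26 (Prm2 and H1fnt), and in Ago413+/- round spermatids all 7 lay between -0.19 (Tnp1) and 0.08 (Prm2).

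**Figure D4:**
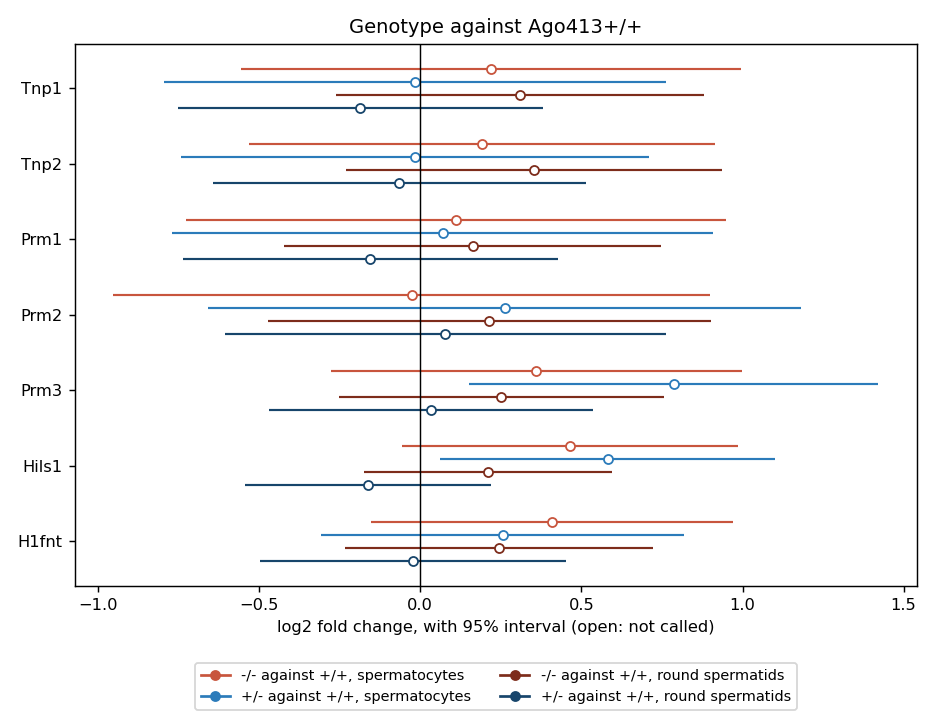
Log2 fold change of each gene against Ago413+/+ (horizontal axis) with its 95% interval, for both other genotypes in both fractions; all points are open because none passed the test. The 7 estimates for Ago413-/- round spermatids lie between 0.16 and 0.35, and the 95% intervals that do not reach 0 are those of Prm3 and Hils1 in Ago413+/- spermatocytes.

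The balance of the products was compared by ratios of counts within a library, which need no scaling between libraries. Sperm of normal mice hold both protamines in a set proportion. The log2 ratio of Prm1 to Prm2 counts was -0.79 ± 0.31 (SD, n = 3) in Ago413+/+, -0.9995 ± 0.21 (n = 4) in Ago413+/- and -0.86 ± 0.17 (n = 4) in Ago413-/- round spermatids. In spermatocytes it was -0.85 ± 0.27 (n = 4), -1.03 ± 0.43 (n = 3) and -0.71 ± 0.06 (n = 3). The log2 ratio of Tnp1 to Tnp2 was closer to even, from -0.18 ± 0.10 in Ago413+/- round spermatids (n = 4) to -0.03 ± 0.16 in Ago413+/- spermatocytes (n = 3). In 8 comparisons with Ago413+/+ (2 ratios, 2 genotypes, 2 fractions), the exact permutation p-values (two-sided) ran from 0.229 to 1, and all adjusted values were 1. With 3 against 4 libraries the smallest p such a test allows is 0.0571, so that no difference could have passed.

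The ratio of protamine (Prm1 and Prm2) to transition protein (Tnp1 and Tnp2) counts is given without a test. Its log2 value was 0.63 ± 0.26 (SD, n = 3) in Ago413+/+, 0.74 ± 0.20 (n = 4) in Ago413+/- and 0.48 ± 0.13 (n = 4) in Ago413-/- round spermatids, and 0.58 ± 0.16 (n = 4), 0.81 ± 0.33 (n = 3) and 0.33 ± 0.23 (n = 3) in spermatocytes. In round spermatids the libraries overlapped, with 0.35 to 0.63 in Ago413-/- and 0.36 to 0.88 in Ago413+/+. In spermatocytes Ago413-/- replicates 2 (0.23) and 3 (0.16) lay below all Ago413+/+ (0.43 to 0.77) and Ago413+/- (0.55 to 1.18) libraries, and replicate 1 (0.59) lay within both.

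In spermatocytes the share of all counts in the 7 genes was lowest in Ago413+/+ replicate 4 (0.365%) and highest in Ago413-/- replicate 1 (1.35%). These were also the libraries with the lowest and highest summed level of the 7 elongating spermatid markers, 2287 and 6980 CPM. In round spermatids the share was highest in Ago413-/- replicate 1 (3.76%), with 14714 CPM of the markers, and second highest in Ago413+/- replicate 1 (3.29%), with the highest marker sum of 16319 CPM. The round spermatid library set aside as an outlier had a share of 0.53% and 4025 CPM of the markers, inside the ranges of the spermatocyte libraries for both. All 7 of these markers passed the test between the fractions in each genotype, with median log2 fold changes of 1.65, 1.58 and 1.82 in Ago413+/+, Ago413+/- and Ago413-/-.

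**Figure D5:**
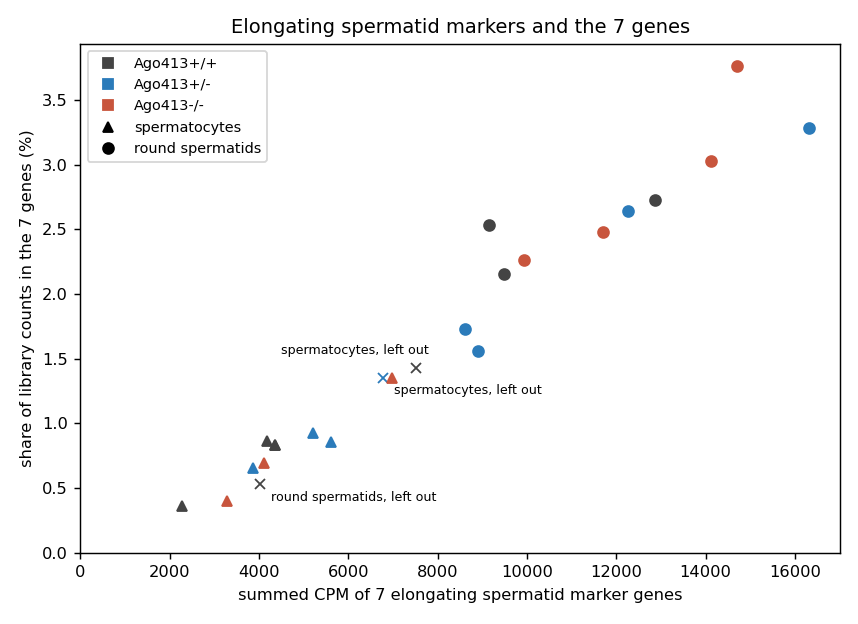
Share of library counts in the 7 genes (vertical axis, percent) against the summed level of 7 elongating spermatid marker genes (horizontal axis, CPM of all counts) in all 24 libraries; triangles are spermatocytes, circles round spermatids, crosses the 3 libraries set aside. The round spermatid library set aside lies among the spermatocytes at 0.53%, and the spermatocyte library with the highest share used, at 1.35%, lies beside the 2 spermatocyte libraries set aside.

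The genes whose levels followed each of the 7 most closely were sought among 4932 genes with a mean log2 CPM of at least 5. The measure was Pearson's r over the 21 libraries after the mean of each fraction was taken away, so that the libraries' own differences in composition and depth enter it. Prm2 was followed most closely by Spem1 (r = 0.99), Car2 (r = 0.99) and Gm498 (r = 0.99), and Spem1 is also one of the elongating spermatid markers. Tnp1 was followed by Cstl1, Klk1b8 and Tfam (r = 0.98, 0.98 and 0.98), Tnp2 by Tex37, Hmgb1-rs17 and Klk1b8 (0.98, 0.97 and 0.97), and Prm1 by Klk1b8, H2al2a and Cstl1 (0.97, 0.97 and 0.96). H2al2a encodes a histone H2A variant of condensing spermatids.

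Hils1 and Prm3 had other companions. Hils1 was followed by Cypt12, Cypt3 and Spata19 (r = 0.99, 0.98 and 0.98), of which the Cypt genes encode cysteine-rich perinuclear theca proteins, and Prm3 by 1700003F12Rik, Iqcf5 and Gm15756 (0.97, 0.95 and 0.95). These 6 genes had log2 fold changes between the fractions of Ago413+/+ animals of 1.16 to 1.38, whereas the companions of Tnp1, Tnp2, Prm1 and Prm2 had 1.68 to 2.05. H1fnt was followed by Sh3rf2, Actrt2 and Psmf1 (r = 0.98, 0.98 and 0.97).

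The cluster on chromosome 16 ended sharply at its flanks. Of 12 genes annotated within 100 kb, the 4 of the cluster included, 9 were tested. Socs1, a brake on cytokine signalling that begins 2399 bp beyond Tnp2, had 0.65 CPM per kilobase in Ago413+/+ spermatocytes and 0.47 in round spermatids, where Tnp2 had 2198 and 8755. Rmi2 had 0.46 and 0.26 CPM per kilobase, and Clec16a had 9.47 and 11.2. None of these neighbours was called between the fractions (log2 fold changes -0.45 for Socs1, -0.82 for Rmi2 and 0.24 for Clec16a, with edgeR adjusted p-values of 0.364, 0.106 and 0.256). Gm46563 and Gm10343, which overlap the body of the Prm1 model with 3 exons on the opposite strand, had 4.60 and 6.25 CPM per kilobase in round spermatids and were not called. The 4 members of the cluster differed among themselves too, with Prm3 at 875 CPM per kilobase between Tnp2 and Prm2.

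Genes that act around the exchange of histones were examined as 5 lists of 49 genes in all, and all 49 were tested. In Ago413+/+ animals 9 of the 49 were called higher in round spermatids and 7 lower, where 12.7% and 11.4% of all genes were. Of 10 histone genes, not all of them particular to testis, H2al2a alone was called (log2 fold change 1.87, SE 0.37, edgeR adjusted p = 0.00124). It had 61 CPM in spermatocytes and 222 CPM in round spermatids, a change near those of the protamines. H2afx, the histone H2A.X, had a log2 fold change of -0.66 and Hist1h2ba, a testis H2B, of -0.33, and neither passed.

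Of 15 genes for histone removal, 4 were called higher and 5 lower in Ago413+/+ round spermatids. Tssk6, a testis kinase needed for the exchange, rose most (log2 fold change 1.91, SE 0.42, edgeR adjusted p = 0.00233) and Chd5, a chromatin remodeler, rose by 1.42 (SE 0.15, edgeR adjusted p = 0.000107). Psma8, a proteasome subunit of testis, fell by 1.37 and Kat5, an acetyltransferase, fell by 0.51 on the log2 scale. In the transcription list 3 of 9 were called higher, among them Fhl5, which encodes the CREM coactivator ACT (log2 fold change 0.88, SE 0.22) and Nr6a1 (0.62, SE 0.13), and 1 was called lower. Tbpl1, a relative of the TATA-binding protein, had -0.31 and Taf7l 0.48, and neither passed.

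Of 9 genes for mRNA storage, 1 was called lower in Ago413+/+ round spermatids, namely Khdrbs1, an RNA-binding protein (log2 fold change -1.10, SE 0.23, edgeR adjusted p = 0.00158). Celf1 and Pelo had -0.23 and -0.12 and did not pass. Of 6 genes for handling of the proteins, Camk4, the kinase that phosphorylates protamine 2, was called higher (log2 fold change 1.28, SE 0.23, edgeR adjusted p = 0.000736), and Hspa4l, a chaperone, had 0.11. In Ago413+/- and Ago413-/- animals 6 of 49 were called higher in each (7.07% and 11.7% of all genes), and 0 and 1 lower (1.82% and 5.42%). With the 3 outlier libraries added back none of the 49 passed in Ago413+/+.

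Between genotypes, edgeR called Chd5 alone among the 49 genes, in both comparisons of spermatocytes with Ago413+/+. Of all genes it called 0.0411% for Ago413-/- and 0.0257% for Ago413+/- there. At an unadjusted p below 0.05 edgeR had 5907 and 4794 of 19450 genes in these comparisons. Chd5 measured 219 to 259 CPM in Ago413+/+, 455 to 489 CPM in Ago413+/- and 402 to 469 CPM in Ago413-/- spermatocytes. The wild-type libraries thus lay below all others, and how many of all genes separate in this way was not counted. The log2 fold change of Chd5 was 0.93 in Ago413-/- (SE 0.13, edgeR adjusted p = 0.0174) and 1.04 in Ago413+/- (SE 0.13, edgeR adjusted p = 0.0107). Chd5 lies on chromosome 4 (152338651 to 152390194), which carries the deletion, as does Khdrbs1 (129703164 to 129742303), named below. The paper states that the deletion was made in another mouse strain and backcrossed. Sequence of that strain linked to the deletion cannot be told apart here from the deletion itself. The number of the 49 genes called higher in Ago413-/- fell to 0 without Ago413+/+ replicate 1, 2 or 4 or Ago413-/- replicate 2 or 3, with the outlier libraries added back and with library number as a term. Under these settings 0.0206% to 0.0305% of all genes were called. In Ago413+/- the number fell to 0 without Ago413+/+ replicate 1 or 2, with the outlier libraries added back, with the replicate block and with only those groups in the fit. There 0.0103% to 0.0155% of all genes were called. Settings that called more of the list also called more of all genes. Without Ago413+/+ replicate 5, edgeR called 7 higher and 7 lower of the 49 in Ago413-/-, with 23.6% of all genes, and 5 higher and 6 lower in Ago413+/-, with 15.5%. DESeq2 called 5 higher and 3 lower in Ago413-/-, with 15.6% of all genes, and 4 higher and 3 lower in Ago413+/-, with 6.31%. Without the filter edgeR called 5 higher and 3 lower (7.61% of all genes) and 4 higher and 5 lower (4.3%). In Ago413-/- it called 3 higher and 3 lower with only those groups in the fit (6.93% of all genes), and 1 higher and 1 lower with the block (3.53%). Among the larger changes in Ago413-/- spermatocytes that did not pass were those of Psma8 (log2 fold change -1.19) and H2afx (-1.12), both with an adjusted p of 0.0599 by edgeR, Taf7l (0.75), Camk4 (0.67), H1fx (-0.67), Khdrbs1 (-0.66) and Nr6a1 (0.61). In Ago413-/- round spermatids 0 of 49 were called by edgeR and 1, lower, by DESeq2, and the largest changes by edgeR were those of Hist1h2ba (-0.77, at about 1 CPM), H2afx (-0.71) and Kat5 (-0.59).

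Markers of the stages in the spermatocyte fraction were compared between genotypes. The 6 spermatocyte markers summed to 521 to 1365 CPM in Ago413+/+, 369 to 673 CPM in Ago413+/- and 326 to 519 CPM in Ago413-/-, and the 5 round spermatid markers to 537 to 983, 896 to 1623 and 954 to 1211 CPM. None of these 11 markers passed the edgeR test between genotypes, and none was at 0. Of all genes, that test called 0.0411% for Ago413-/- and 0.0257% for Ago413+/- against Ago413+/+, and 0.00514% for Ago413-/- against Ago413+/-. The Ago413-/- sums of the spermatocyte markers lay below all Ago413+/+ sums, at the closest by 519 against 521 CPM. Against Ago413+/+, all 6 spermatocyte markers had lower estimates in both other genotypes, and all 5 round spermatid markers higher ones. Markers of other cell types were low in all groups, with summed levels of 31.9 to 81.0 CPM for 5 spermatogonial genes, 9.47 to 62.6 CPM for 6 Sertoli genes, 2.99 to 26.4 CPM for 5 Leydig genes and 7.26 to 50.01 CPM for 6 macrophage genes, of which Lyz2 was at 0 in Ago413+/+ spermatocytes. The macrophage genes were higher in round spermatids, with 4 of 6 called in each genotype. Of the Sertoli genes, 3 of 6 were called higher in Ago413-/- round spermatids. Spermatogonial genes were called higher in 2 of 5 cases in Ago413+/+ and 1 of 5 in Ago413-/-. Of the Leydig genes, 1 of 5 was called lower in Ago413+/-, and these lists held no other call between the fractions. The part of these cells in the values of the 7 genes was not tested.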

How the data were processed

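Per the labels and the study's methods, reads were trimmed with Trim Galore and aligned to mm10 with STAR, and the authors deposited 1 table of raw counts per gene. The strand column and annotation release are not given in the sources used here. Of 55536 identifiers, 55450 were matched to GENCODE M21. From these counts, genes reaching 10 counts in 3 or more libraries were kept and tested with edgeR 4.0.16 (TMM scaling, quasi-likelihood, Benjamini-Hochberg), each fraction on its own for genotypes and all 21 libraries together for fractions. A call needed an adjusted p below 0.05 and a log2 fold change beyond 0.5. DESeq2 1.42.0 (R 4.3.3) was an alternative, as were other scalings, no filter, the outlier libraries added back, each library left out, library number as a term and a replicate block. The scripts were tested on simulated data. Ratios used exact permutation tests in SciPy 1.17.1. Named beside the 7 genes were the genes of 5 exchange lists called between genotypes, the largest changes per list, the 3 genes most alike in level, and neighbours within 100 kb. Marker lists covered spermatocytes, round and elongating spermatids, spermatogonia, Sertoli, Leydig and macrophage cells. The members, though named by symbol and not by value, and the lists were chosen with earlier results of these data known. The p-values measure the spread between libraries of pooled mice. Sequences came from RefSeq (GRCm38.p6), in which all 7 genes were matched, H1fnt as H1f7.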

Additional observations from a re-analysis of the deposited data

Results flagged for a closer look

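In 33 combinations of a measure and a group of 4 libraries, 1 library lay further from the others than Dixon's 95% critical value allows in 3 cases, and chance gives about 1 in 20. All 3 came from Ago413+/+ spermatocyte replicate 4, with a log2 CPM of 9.21 for Tnp1, a log2 CPM of 9.32 for Prm1 and 0.365% of its counts in the 7 genes. Among the libraries set aside by their labels, both spermatocyte libraries (1 Ago413+/+ and 1 Ago413+/-) had all 7 of the 7 genes above every Ago413+/+ spermatocyte library used. None of the 7 genes passed the test of a difference between the fractions in the null against wild-type change.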

How the results depend on the processing

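Over all alternatives run, 7 of 7 genes were called between the fractions in Ago413+/+ and in Ago413-/- animals, except that adding back the outlier libraries gave 0 in Ago413+/+ (and 0 in Ago413+/-, against 5) and that leaving out single libraries gave 6 to 7 in Ago413-/-. In Ago413+/- the count was 6 by DESeq2 and without a filter, and 4 to 6 without single libraries. Between genotypes the count stayed at 0, except for 1 (Prm3) without a filter in Ago413+/- spermatocytes. The share of counts in Ago413+/+ round spermatids moved to 1.99% with the outlier library added back. Samples share only a replicate number: same-numbered libraries of different genotypes correlated above 0.1 in their deviations in 4 of 7 spermatocyte pairs and 0 of 10 round spermatid pairs, and consecutive library numbers in 8 of 9 pairs. The replicate block (the title's number) left 0 of the 7 genes called between genotypes. With it 687 of 19450 genes (3.53%) were called for Ago413-/- against Ago413+/+ spermatocytes. Between the fractions the block was the pair of consecutive library numbers, over 18 of the 21 libraries with 6 residual degrees of freedom, and left 7, 5 and 7 called. The block on the title's number turned 3 signs, to -0.00199 for Prm1 in Ago413-/- spermatocytes, 0.0656 for Tnp2 in Ago413+/- spermatocytes and 0.0204 for H1fnt in Ago413+/- round spermatids, all against Ago413+/+. With outlier libraries added back, the log2 fold changes against Ago413+/+ turned to -0.00323 (Tnp1), -0.0726 (Tnp2) and -0.13 (Prm1) in Ago413-/- spermatocytes, to 0.12 (Tnp1) and 0.12 (Tnp2) in Ago413+/- spermatocytes, and to 0.12 (Tnp1), 0.24 (Tnp2), 0.16 (Prm1), 0.0210 (Hils1) and 0.23 (H1fnt) in Ago413+/- round spermatids. Prm2 in Ago413-/- spermatocytes turned to 0.00877 with library totals alone, 0.0895 with library number and 0.00105 with only those groups in the fit; Prm1 in Ago413+/- spermatocytes turned to -0.0813 with library number; in Ago413+/- round spermatids Prm3 turned to -0.0116 with library totals and H1fnt to 0.0249 without a filter. None of these values passed the test under any of these settings, and the cause was not tested.

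Leaving out each library in turn changed the sign of uncalled values, whose ranges in Ago413-/- spermatocytes were -0.36 to 0.56 (Tnp1), -0.28 to 0.51 (Tnp2), -0.59 to 0.48 (Prm1) and -0.79 to 0.35 (Prm2), and in Ago413-/- round spermatids -0.0769 to 0.27 (Prm1). In Ago413+/- spermatocytes they were -0.18 to 0.11 (Tnp1), -0.17 to 0.11 (Tnp2) and -0.10 to 0.20 (Prm1). In Ago413+/- round spermatids they were -0.34 to 0.10 (Tnp2), -0.42 to 0.0081 (Prm1), -0.34 to 0.29 (Prm2), -0.24 to 0.15 (Prm3) and -0.25 to 0.13 (H1fnt). The difference from Ago413+/+ in the log2 ratio of Prm1 to Prm2 ranged from -0.37 to 0.0457 (Ago413+/- spermatocytes) and -0.21 to 0.10 (Ago413-/- round spermatids). That of Tnp1 to Tnp2 ranged from -0.0648 to 0.0598 (Ago413-/- spermatocytes), -0.0799 to 0.082 (Ago413+/- spermatocytes) and -0.0836 to 0.0106 (Ago413-/- round spermatids). Genes called over the whole table numbered 8 by edgeR and 3026 by DESeq2 for Ago413-/- against Ago413+/+ spermatocytes, and 10 and 702 for round spermatids. For Ago413+/- against Ago413+/+ they were 5 and 1228, and 4 and 7, and for Ago413-/- against Ago413+/- 1 and 4, and 1 and 20. Over all settings the calls against Ago413+/+ in spermatocytes ran from 4 to 4526 (Ago413-/-) and 2 to 2966 (Ago413+/-), both highest without Ago413+/+ replicate 5, and in round spermatids from 5 to 702 and 3 to 10. Between the fractions they ran from 0 to 6398 (Ago413+/+), 0 to 2791 (Ago413+/-) and 1248 to 4876 (Ago413-/-), with both values of 0 from the outlier libraries added back. With 3 or 4 libraries a group, changes of any size within the 95% intervals given remain compatible with these data.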

Other observations

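Of the 21 libraries used, 9 spermatocyte and 9 round spermatid libraries bear consecutive numbers (such as 77 and 78), and the labels do not say that these came from the same mice. Over these 9 pairs, 9 measures were compared between the fractions: the log2 ratios of Prm1 to Prm2 and of Tnp1 to Tnp2, and the log2 CPM of each of the 7 genes. The log2 ratio of Prm1 to Prm2 had Pearson's r of 0.73 (exact permutation p = 0.0268, adjusted p = 0.242) and Spearman's rho of 0.50 (exact permutation p = 0.178, adjusted p = 0.349), and r was 0.63 without the 2 pairs farthest from the median of the spermatocyte values. The log2 ratio of Tnp1 to Tnp2 had r of 0.32 (exact permutation p = 0.401, adjusted p = 0.516) and rho of 0.53 (exact permutation p = 0.148, adjusted p = 0.349), and r was 0.92 without the farthest 2 pairs. For the levels of the 7 genes r ran from 0.078 (Hils1) to 0.58 (Prm2), with exact permutation p-values of 0.852 and 0.0988. None of the 9 measures passed the correction, and they were looked at after the values were seen.

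The antisense gene 1700027A15Rik, which shares exonic bases with Tnp1, had 1810 to 25973 counts per library, more than the 15 to 131 counts of Gm46563 opposite Prm1. How many of the first gene's counts come from Tnp1 was not tested.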
